A study of Homo sapiens with 4 samples.

Results

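The 10 genes described here act at and below β-catenin in the canonical WNT pathway. They are CTNNB1, which encodes β-catenin itself, the DNA-binding partners LEF1, TCF7, TCF7L1 and TCF7L2, the scaffold AXIN1, and the feedback genes and targets AXIN2, SP5, NKD1 and NOTUM. They were chosen by name as pathway components, with earlier results of these data known, and all 10 were found among the 17894 genes of each deposited file. RNA-SEQ was performed on cells of the human embryonic stem cell line H1 at day 2 of hematopoietic differentiation on mAGM-S3, a mouse stromal line, after sorting for TRA-1-85, an antigen of human cells. The 4 libraries comprised 1 of wild-type control cells, 1 of wild-type cells treated on the first day with 20 ng/mL R-spondin2, and 2 of LGR4-/- cells, labelled LGR4-/--1 and LGR4-/--2. All 4 shared the H1 background, the stromal co-culture and the sort. The labels number the LGR4-/- libraries without saying how the lines were made, or whether they came from separate clones or cultures.

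When WNT is absent, a complex built on AXIN and APC phosphorylates β-catenin and marks it for degradation. WNT receptors block this complex, and β-catenin then enters the nucleus and binds LEF1 and TCF proteins on target genes. R-spondins bind LGR4 and related receptors and keep WNT receptors at the cell surface. In early differentiation of pluripotent cells this pathway drives the primitive streak, from which mesoderm arises. LEF1 and TCF7 are known mostly as activators in the presence of β-catenin, TCF7L1 is known mostly as a repressor in pluripotent cells, and AXIN2, SP5, NKD1 and NOTUM are known targets whose products restrain the pathway.

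The LEF1 and TCF proteins recognise DNA through the core CTTTG followed by AA, AT, TA or TT. These letters were searched on both strands in the 250 bases before each RefSeq transcription start of the members (build GRCh38.p14). RefSeq windows were matched for 7 of the 10 genes, 10 windows in all, and those of AXIN2, NKD1 and NOTUM were not among them. SP5 held 3 matches, 1 of 2 windows of TCF7 held 1, 1 of 3 windows of TCF7L2 held 1, and the windows of CTNNB1, LEF1, TCF7L1 and AXIN1 held none. Among the 15178 such windows of all genes tested, 8.03% held at least 1 match and 0.0395% held 3 or more. The matches are shown because their 3 windows belong to 2 members of the family that binds these letters and to a target of it. The SP5 window is shown whole, and those of TCF7 and TCF7L2 as 61 bases around the match. Each of these 2 windows lies before a downstream start of its gene, and the window of the first start held no match. Matches are in capitals, and a match is a description of the letters only.
SP5, chr2:170715087-170715336, plus strand: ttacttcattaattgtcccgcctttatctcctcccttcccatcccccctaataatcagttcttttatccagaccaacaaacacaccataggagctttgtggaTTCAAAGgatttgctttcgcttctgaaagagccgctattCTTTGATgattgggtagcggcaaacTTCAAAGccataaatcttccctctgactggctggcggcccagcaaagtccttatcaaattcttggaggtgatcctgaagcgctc
TCF7, chr5:134123541-134123601, plus strand: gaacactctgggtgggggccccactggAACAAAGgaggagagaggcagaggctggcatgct
TCF7L2, chr10:113126473-113126533, plus strand: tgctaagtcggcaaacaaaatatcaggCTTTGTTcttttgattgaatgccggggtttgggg

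Levels were deposited as FPKM, that is, fragments mapped to a gene per kilobase of transcript, scaled to the total mapped in that library, and are comparable between genes on this per-length scale. RNA of the targeted gene LGR4 measured 21.8 FPKM in control, 24.3 with R-spondin2, 7.40 in LGR4-/--1 and 13.9 in LGR4-/--2, so that it was lower in both LGR4-/- libraries and present in both. The cells carried markers of pluripotent and of streak cells. The summed FPKM of 10 primitive streak and mesoderm markers was 3529 in control, 4953 with R-spondin2, and 1006 and 1661 in the LGR4-/- libraries, where all 10 were below control. CER1 alone, at 2395, 3467, 599 and 1034 FPKM, made up most of each sum. In LGR4-/--2, T and KDR were close to control, at 66.5 against 70.3 and 32.9 against 34.4 FPKM. The summed FPKM of 10 pluripotent cell markers was 1762, 1451, 2806 and 2606, and all 10 were above control in both LGR4-/- libraries. In 8 endoderm markers the sum ran from 48.5 to 121 and was lowest in LGR4-/--1. In 8 neuroectoderm markers it ran from 43.9 to 60.8, with PAX6, SOX1, ZIC1, NEUROG1 and LHX2 below 1 FPKM in all 4 libraries and NEUROG1 listed at 0 throughout. The 8 blood and endothelial markers summed to 13.3 to 14.6, with PECAM1, CDH5, CD34 and GATA1 below 1 FPKM in all 4, and the 8 stromal markers to 216 to 297, with DCN and POSTN below 1 FPKM in all 4. The share of these cell states in the differences given next was not tested, and in such bulk samples fewer cells of a type and less RNA per cell cannot be told apart.

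CTNNB1 was the highest of the 10 genes and NOTUM the lowest in every library. CTNNB1 was at 163 FPKM in control, 174 with R-spondin2, 144 in LGR4-/--1 and 156 in LGR4-/--2. SP5, a zinc finger repressor and WNT target, was the second highest throughout. Below these came TCF7L1 in control and in both LGR4-/- libraries, but TCF7 in the R-spondin2 library, where TCF7L1 stood seventh. In the control library TCF7, AXIN1, AXIN2 and NKD1 lay close together, from 19.3 to 23.3 FPKM. In the R-spondin2 library TCF7, NKD1, AXIN1, AXIN2 and TCF7L1 did so, from 18.7 to 22.9 FPKM. With 1 library each, no order within either band can be read. Within the LGR4-/- pair the ranges of TCF7L2 and TCF7 overlapped, as did those of NKD1 and LEF1, while the other neighbours in the order did not overlap.

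**Figure D1:**
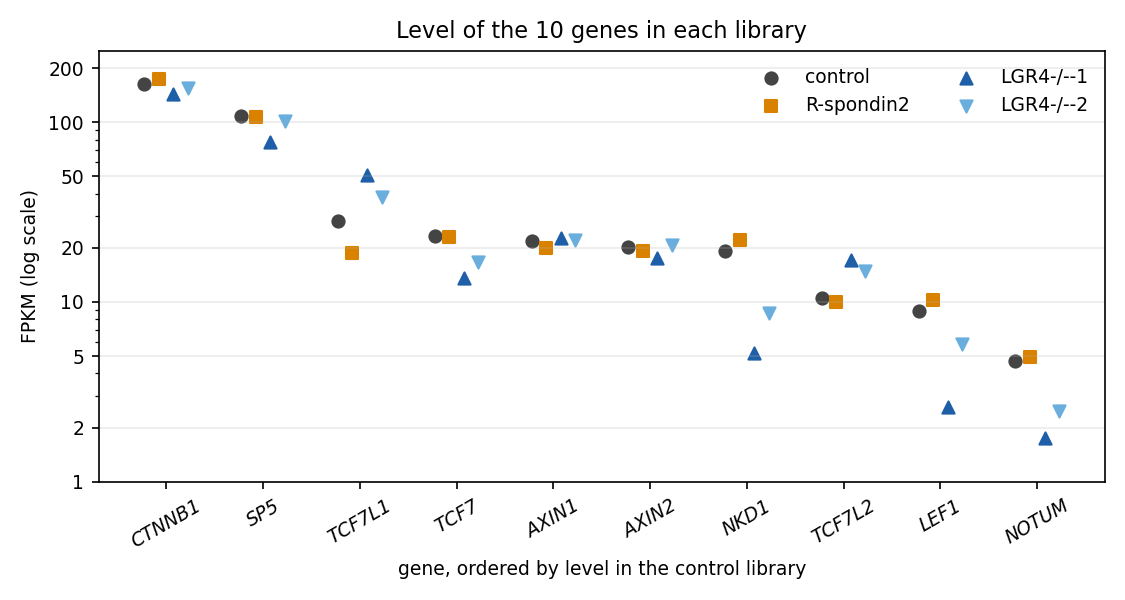
FPKM (log axis) of the 10 genes, ordered by their level in control, with 1 point for each of the 4 libraries and no error bars, since each point is a single library. CTNNB1, LEF1, TCF7, SP5, NKD1 and NOTUM lie lower, and TCF7L1, TCF7L2 and AXIN1 higher, in both LGR4-/- libraries than in both wild-type libraries. Of all genes tested, 27.6% lie lower and 34.4% higher in this way.

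The comparison of LGR4-/- with control asks what the pathway's effectors do when the R-spondin receptor is targeted. The 4 DNA-binding partners of β-catenin split into 2 pairs. LEF1 was at 8.95 FPKM in control and 10.3 with R-spondin2, against 2.60 in LGR4-/--1 and 5.86 in LGR4-/--2. TCF7 was at 23.3 and 22.9 FPKM in the wild-type libraries and at 13.7 and 16.7 in the LGR4-/- libraries. Both LGR4-/- libraries thus lay below both wild-type libraries for these 2 genes, as they did for 27.6% of all genes tested. TCF7L1 went the other way, with 28.2 FPKM in control and 18.7 with R-spondin2, against 51.1 and 38.4. TCF7L2, the member best known from adult intestine, was at 10.5 and 9.96 FPKM in the wild-type libraries and at 17.1 and 14.8 in the LGR4-/- libraries. The widest gap was in LGR4-/--1, where LEF1 was at 29.1% and TCF7L1 at 181% of control. In LGR4-/--2 the same genes were at 65.5% and 136%.

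The make-up of the family differed accordingly. The sum of the 4 genes was 71.0 FPKM in control, 61.8 with R-spondin2, 84.4 in LGR4-/--1 and 75.8 in LGR4-/--2. LEF1 and TCF7 together held 45.5% of it in control and 53.6% with R-spondin2, but 19.3% and 29.8% in the LGR4-/- libraries. TCF7L1 was 3.15 times LEF1 in control and 1.82 times with R-spondin2, and 19.7 and 6.56 times in the LGR4-/- libraries. Against TCF7, TCF7L1 was 1.21 times in control, 0.819 times with R-spondin2, and 3.74 and 2.30 times in the LGR4-/- libraries. TCF7 thus exceeded TCF7L1 in the R-spondin2 library alone, an order that rests on 1 library. These sums and ratios were chosen after the values had been seen. LEF1, TCF7 and TCF7L2 are counted over 4, 5 and 13 RefSeq transcripts, and forms of LEF1 and TCF7 that lack the β-catenin binding end are not separated in a gene value.

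**Figure D2:**
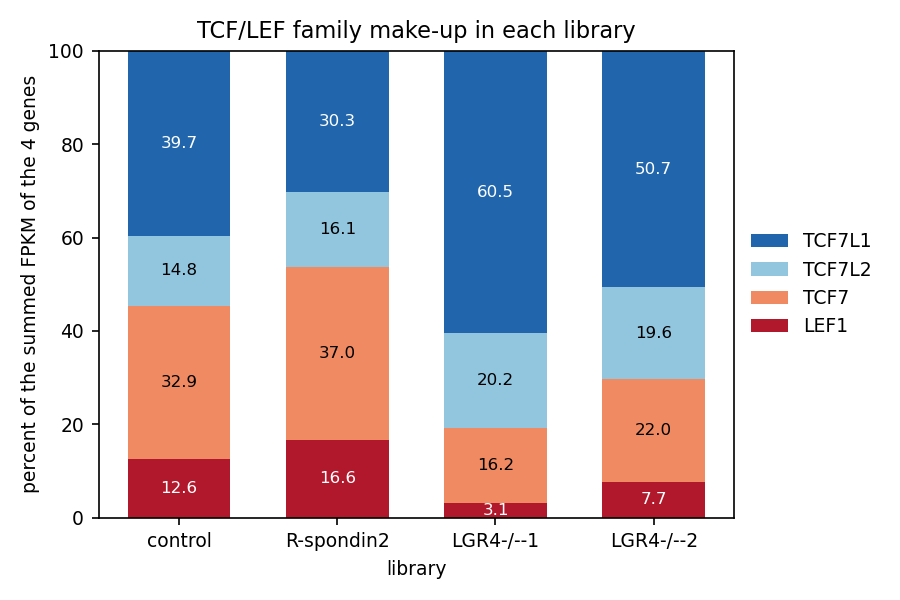
Share, in percent, of the summed FPKM of LEF1, TCF7, TCF7L2 and TCF7L1 held by each gene, with 1 bar for each library. The 2 lower segments, LEF1 and TCF7, hold 45.5% in control, 53.6% with R-spondin2, 19.3% in LGR4-/--1 and 29.8% in LGR4-/--2.

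CTNNB1 itself differed little. Its LGR4-/- values were 88.2% and 95.5% of control, and the log2(FPKM+1) difference of their mean from control was -0.12. AXIN1, the constitutive scaffold of the destruction complex, stayed within 19.9 to 22.6 FPKM over the 4 libraries, the narrowest log2 range of the 10 genes.

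The feedback genes and targets did not differ alike. NKD1, which binds Dishevelled and restrains WNT signaling, was at 19.3 FPKM in control and 22.2 with R-spondin2, and at 5.22 and 8.70 in the LGR4-/- libraries, that is, 27% and 45.1% of control. NOTUM, a secreted enzyme that removes the lipid that WNT proteins need, was at 4.69 and 4.92 FPKM in the wild-type libraries and at 1.76 and 2.48 in the LGR4-/- libraries. For both genes the 2 groups of libraries were well apart. AXIN2, often used as a readout of β-catenin activity, was at 20.2, 19.3, 17.6 and 20.8 FPKM in control, R-spondin2, LGR4-/--1 and LGR4-/--2, so that the LGR4-/- values lay on both sides of the wild-type values. NKD1 and AXIN2 had nearly equal levels in control, a ratio of 0.958, and in the LGR4-/- libraries NKD1 was at 0.296 and 0.418 of AXIN2. SP5, whose promoter window holds the 3 matches shown above, was at 108 and 106 FPKM in the wild-type libraries, 77.5 in LGR4-/--1 and 102 in LGR4-/--2. Its lower value rests on LGR4-/--1, since LGR4-/--2 was at 94.9% of control.

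A filter on the mean, set at 1 FPKM, kept 12697 genes and all 10 members. Of these, 137 genes (1.08%) were lower than control at least 2-fold in both LGR4-/- libraries and 30 genes (0.236%) were higher. Of the 10 members, NKD1 was 2-fold lower in both. At 1.5-fold, 392 genes (3.09%) were lower in both, NKD1 and NOTUM among them, and 332 (2.61%) were higher, with 0 members. Taking LGR4-/--1 by itself, 447 genes (3.52%) differed 2-fold and 287 (2.26%) were lower, LEF1, NKD1 and NOTUM among them. For LGR4-/--2 by itself these were 191 (1.5%) and 149 (1.17%), NKD1 among them. The log2 differences of NKD1 were -1.71 and -1.07, those of LEF1 -1.47 and -0.54, those of NOTUM -1.04 and -0.71, and those of TCF7 -0.73 and -0.46. Those of TCF7L1 were 0.83 and 0.43, and those of TCF7L2 0.65 and 0.46. In the mean of both libraries, 91 of the 12697 genes, NKD1 included, lay at least as far below control as NKD1, 215 as far as LEF1, and 427 at least as far above control as TCF7L1. The median of the 10 members was -0.20, with 7 members lower and 3 higher. For all 12697 genes tested the median was 0.02, with 5894 lower and 6803 higher. AXIN2 counts among the 7, though its LGR4-/- values lay on both sides of control.

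**Figure D3:**
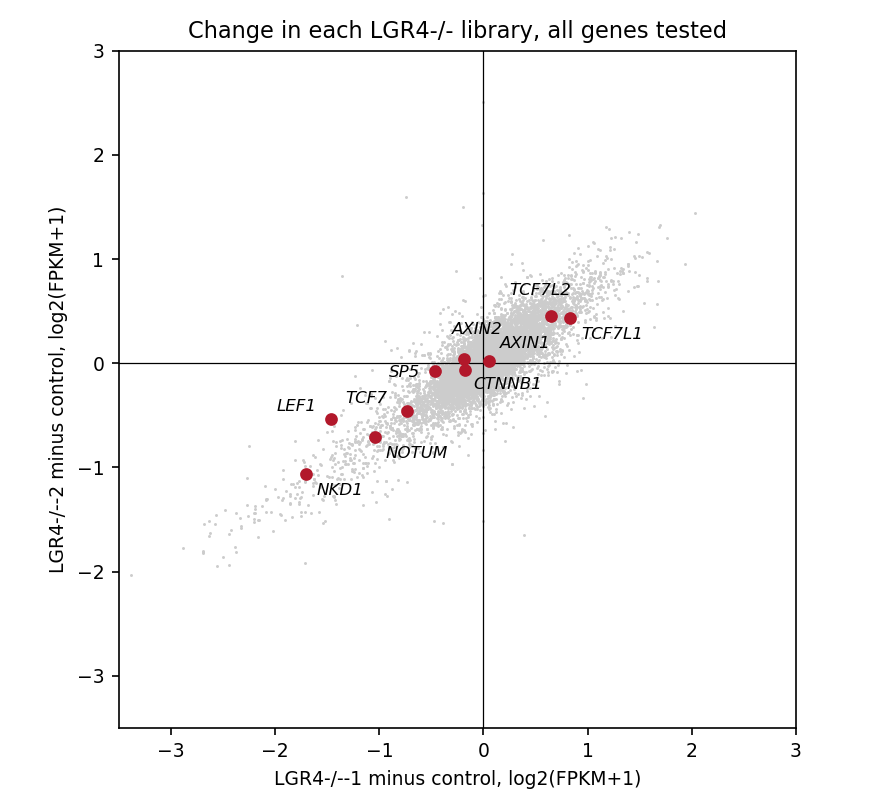
Difference from control in log2(FPKM+1) of LGR4-/--1 (horizontal axis) and of LGR4-/--2 (vertical axis) for the 12697 genes tested (grey points), with the 10 members in red. Both axes share the single control library, which by itself pulls the points along the diagonal. NKD1 lies at -1.71 and -1.07 and TCF7L1 at 0.83 and 0.43.

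The test of LGR4-/- against control used limma on log2(FPKM+1) in a model of 3 groups. Its only replicates are the LGR4-/- pair, which leaves 1 residual degree of freedom. The spread of each gene is moderated toward a trend over all genes, with a median of 4.05 prior degrees of freedom. The SE of a gene therefore comes mostly from that trend and not from its own pair. The test also assumes that the single control library varies as the LGR4-/- pair does. At a Benjamini-Hochberg adjusted p of 0.05 it called 0 of 12697 genes (0%), while 2332 genes had an unadjusted p under 0.05, and limma without a mean trend also called 0. The estimate for NKD1 was -1.39 (SE 0.272, limma adjusted p = 0.101), for NOTUM -0.88 (SE 0.202, adjusted p = 0.121), for TCF7L2 0.55 (SE 0.134, adjusted p = 0.13) and for TCF7 -0.59 (SE 0.146, adjusted p = 0.132). For TCF7L1 it was 0.63 (SE 0.179, limma adjusted p = 0.163), and for LEF1, which differed most between the LGR4-/- libraries, -1.0 (SE 0.383, adjusted p = 0.263). CTNNB1, SP5, AXIN1 and AXIN2 had limma adjusted p-values from 0.471 to 0.881. With the filter at 5 FPKM, which left out NOTUM, limma tested 9029 genes and 9 members and called 497 genes (5.5%), NKD1 among them (adjusted p = 0.0287).

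When the control and R-spondin2 libraries served jointly as 2 wild-type libraries, limma called 847 genes lower (6.67%) and 1015 higher (7.99%) in LGR4-/-, 14.7% in all. Against this reference 4 of the 10 members fell, with log2 differences of -1.48 for NKD1 (SE 0.204, limma adjusted p = 0.0105), -0.91 for NOTUM (SE 0.152, adjusted p = 0.0156), -0.58 for TCF7 (SE 0.107, adjusted p = 0.0191) and -1.09 for LEF1 (SE 0.281, adjusted p = 0.0483). TCF7L2 rose by 0.59 (SE 0.101, limma adjusted p = 0.0161) and TCF7L1 by 0.92 (SE 0.203, adjusted p = 0.0313). The remaining 4 did not pass, with limma adjusted p = 0.131 for CTNNB1, 0.2 for SP5, 0.453 for AXIN1 and 0.822 for AXIN2. This reference includes a treated library, and TCF7L1 in particular differed between the 2 wild-type libraries. By position alone, 6 members had both LGR4-/- libraries below both wild-type libraries, where 27.6% of all genes did, and 3 had both above, where 34.4% did. AXIN2 was the member whose groups overlapped.

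The deposited values hold no read counts, so counting error was estimated from the depth at which low FPKM values came closest to whole reads, 8850000 to 9040000 reads per library, and from the shortest coding length of each gene, which gives the fewest reads and the widest interval. The fewest reads ran from 21 for LEF1 in LGR4-/--1 to 3606 for CTNNB1 with R-spondin2. The 95% Clopper-Pearson interval of the log2 ratio of FPKM to control excluded 0 in both LGR4-/- libraries for LEF1, TCF7, TCF7L1, TCF7L2, NKD1 and NOTUM. For LEF1 it was -2.56 to -1.07 in LGR4-/--1 and -1.18 to -0.08 in LGR4-/--2, and for NKD1 -2.31 to -1.49 and -1.48 to -0.81. For AXIN1 and AXIN2 the intervals included 0 in both libraries, and for SP5 and CTNNB1 in LGR4-/--2 only. These intervals cover counting error only, not the spread between cultures. They were computed for the members and LGR4 only, so the share of all genes whose interval would exclude 0 is not known.

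**Figure D4:**
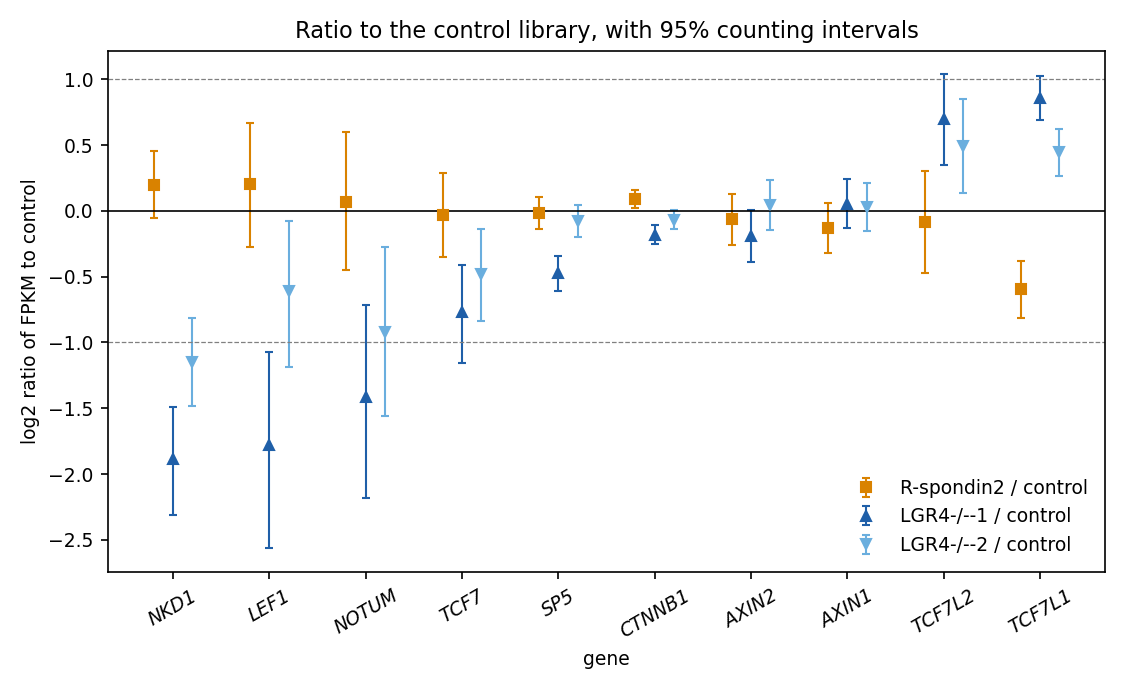
Log2 ratio of FPKM to the control library for R-spondin2, LGR4-/--1 and LGR4-/--2, with 95% Clopper-Pearson counting intervals at the fewest implied reads (bars). The dashed lines mark 2-fold, and the genes are ordered by the mean LGR4-/- difference. NKD1 lies beyond the lower line in both LGR4-/- libraries, and TCF7L1 is the gene whose R-spondin2 ratio lies farthest from 0.

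The comparison of R-spondin2 with control asks whether added ligand moves the same genes. The paper reports R-spondin RNA in the mAGM-S3 stroma, that of R-spondin2 being the highest. The control culture may therefore not have been free of ligand. These libraries of sorted human cells do not measure stromal ligand, and its part in the differences was not tested. Each side had 1 library, so the differences have no replicate check and no test was made. Of all genes tested, 6 (0.0473%) were at least 2-fold higher and 22 (0.173%) lower, 28 (0.221%) in all, and 0 of the 10 members were. At 1.5-fold on the log2(FPKM+1) scale it was 254 genes (2%), again with 0 members. The member that stood apart was TCF7L1, at 18.7 FPKM with R-spondin2 against 28.2 in control. This is 66.4% of control, with a log2 ratio of -0.59 and a counting interval of -0.81 to -0.38. Of the 12697 genes, 209 lay at least as far below control, TCF7L1 included. The other 9 members lay within -0.12 and 0.19 in log2(FPKM+1). NKD1 was 0.19 and LEF1 0.18 above control, and NOTUM 0.06 above. AXIN2 was 0.06 below control, TCF7 0.03, SP5 0.02 and AXIN1 0.12 below. The counting intervals of these 7 genes and of TCF7L2 included 0. They were taken at the fewest implied reads and are the widest, so narrower intervals at the unknown true counts could exclude 0. The interval for NKD1 spanned -0.05 to 0.46, that for AXIN2 -0.26 to 0.13 and that for SP5 -0.14 to 0.10, all as log2 ratios. CTNNB1, with 3461 reads or more in control, was at 106% of control with an interval of 0.02 to 0.16 on the log2 scale. The median of the 10 members was -0.02, beside -0.01 for all genes tested. The R-spondin2 and the LGR4-/- differences share the control library and cannot be read as independent of each other.

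The LGR4-/- libraries also differed from each other. LEF1 was 2.25 times as high in LGR4-/--2 as in LGR4-/--1, with a log2(FPKM+1) difference of 0.93, and 28 of 12697 genes, LEF1 included, differed at least as far in that direction. NKD1 was 1.67 times and SP5 1.32 times as high in LGR4-/--2, and TCF7L1 was at 75.2%. For these 4 genes the counting interval of the log2 ratio excluded 0, as it did for AXIN2 at 1.18 times and CTNNB1 at 1.08 times. The share of all genes for which it would do so was not computed. At 2-fold, 32 genes (0.252%) differed on the log2(FPKM+1) scale, and 0 of the 10 members. LGR4 was 1.89 times as high in LGR4-/--2.

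The other genes of the pathway were described from 4 lists, of which the filter on low values kept 27 of 28, 25 of 26, 14 of 15 and 26 of 26 measured genes. In the list for the destruction complex and β-catenin turnover, the median difference of LGR4-/- from control was 0.05, and 0 genes were 2-fold lower or higher in both libraries. Against both wild-type libraries 3 of the 27 rose and 0 fell by limma, where 7.99% of all genes rose and 6.67% fell, so that the count of the list was near the background. The 3 were FRAT2, which binds GSK3 and stabilizes β-catenin, at 20.2 FPKM in control, 13.6 with R-spondin2, 41.6 in LGR4-/--1 and 32.7 in LGR4-/--2 (adjusted p = 0.0161), the WNT co-receptor LRP5, and FBXW11, part of a ubiquitin ligase for β-catenin. FRAT2 also had the largest R-spondin2 difference of this list, -0.54. Among nuclear cofactors the median was -0.08, and on the same reference 1 of 25 rose and 2 fell, again near the shares of all genes. The Groucho corepressor TLE3, at 37.0 FPKM in control, 40.1 with R-spondin2, 23.7 in LGR4-/--1 and 26.2 in LGR4-/--2, fell against both wild-type libraries and did not pass against control alone (limma adjusted p = 0.0104 and 0.0968). TLE2, of the same family, was at 2.58, 1.79, 4.16 and 3.79 FPKM (limma adjusted p = 0.042 and 0.227). PYGO1, a coactivator that reaches β-catenin through BCL9, was at 1.60, 2.06, 0.55 and 0.82 FPKM (limma adjusted p = 0.0359 and 0.206). The largest R-spondin2 difference in this list was -0.38, in CBY1, an antagonist of β-catenin.

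Of the 14 other feedback regulators, 3 fell and 1 rose by limma against both wild-type libraries, where 6.67% of all genes fell and 7.99% rose. The median of these regulators was -0.03, and this list too was written with earlier results known. LGR5, a receptor of R-spondins and itself a target, was at 36.7 FPKM in control, 46.3 with R-spondin2, 4.85 in LGR4-/--1 and 9.78 in LGR4-/--2, a mean log2 difference from control of -2.25 (limma adjusted p = 0.0899 against control and 0.00868 against both wild-type libraries). DKK1, a secreted antagonist that binds the LRP co-receptors, was at 139, 173, 39.4 and 62.0 FPKM. APCDD1, a membrane inhibitor of WNT, was at 30.1, 31.4, 14.3 and 22.1 FPKM. TRABD2A, which was outside the naming rule and was named after its values had been seen, was the gene that rose on this reference, at 5.12, 4.72, 7.36 and 7.92 FPKM in the same order of libraries. DKK4 had the largest R-spondin2 difference of the list, 0.72, and in LGR4-/- was at 43.0 and 57.0 FPKM beside 43.3 in control.

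The 26 transcription factors and growth regulators known to respond to β-catenin had a median LGR4-/- difference of -0.42, beside 0.02 for all genes. Against both wild-type libraries 11 fell and 0 rose by limma, where 6.67% of all genes fell and 7.99% rose. The list was written with earlier results of these data known, so its count is a description only. The 3 largest were MSX1, a homeobox factor, at 40.4 FPKM in control and 5.65 and 13.5 in the LGR4-/- libraries, SNAI2, a repressor of epithelial genes, at 9.57 against 1.48 and 3.27, and MSGN1, a factor of presomitic mesoderm, at 6.64 against 1.41 and 2.86. With R-spondin2 the median of this list was 0.08, with 17 higher and 9 lower. Of all 12697 genes tested, 6066 were higher and 6585 lower. The largest difference of the list was in CDX4, at 1.21 FPKM in control and 0.41 with R-spondin2. T and MIXL1 of this list are also among the streak markers, all of which were lower in LGR4-/-, and the part of the streak cells in these values was not tested.

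Over the 4 libraries, log2(FPKM+1) ranged by at least 1 in NKD1, LEF1, TCF7L1 and NOTUM. The genes with the nearest profiles, by the Euclidean distance between log2 values centred on their mean over the 4 libraries, were sought among genes averaging 5 FPKM or more. Of 9028 genes compared, LGR4 itself was the nearest to LEF1 (distance 0.074), followed by LRRTM1 and CAP2 (0.22 and 0.23). Nearest to NKD1 were ITGA5 (0.077), which encodes an integrin chain for fibronectin, PTPRM and the cadherin gene CDH11. Nearest to TCF7L1 were MATK (0.061) and TRIM46 (0.095), both highest in LGR4-/--1 and lowest with R-spondin2. Nearest to NOTUM were REEP4 (0.05), PRIMA1 and GYPC. With 4 points a profile, these distances are a description only.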

How the data were processed

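RNA-SEQ libraries of sorted human cells at day 2 were analysed, 1 for control, 1 for R-spondin2 and 2 for LGR4-/-. The authors deposited FPKM to 2 decimals for 17894 genes per library. The submitters' processing notes name BWA, Bowtie, RSEM and hg19, with no role or version. The depth, unknown from FPKM alone, was estimated from FPKM below 0.6 of single-transcript genes shorter than 1500 bases, with GENCODE release 29 lengths. At the best depth 77.2% to 79.4% of values fell no more than 0.2 from a whole read, against 47.4% to 48.9% with shuffled lengths, and simulated depths were recovered within 2.1%. PCR duplicates were not separable.

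Differences were taken in log2(FPKM+1), which understates changes of low genes, for the 12697 genes whose mean reached 1 FPKM. Groups came from each sample's own title. The limma p-values rest only on the spread between these libraries, which may be technical. In the reported setting the spread of each gene was moderated toward a trend over all genes. In simulated LGR4-/- against control libraries of 12697 genes limma recovered 64% of 2-fold and 95% of 4-fold changes at 10 false calls. The simulation drew each gene's spread around a smoothed curve and let the control vary as the LGR4-/- pair. These shares therefore need not hold for the real libraries and say nothing about genes that were not called. All 10 members, LGR4, the 3 largest LGR4-/- differences and the largest R-spondin2 difference of each pathway list were named, with the 3 nearest profiles, apart from genes that are not reported here. The members and lists were chosen with earlier results of these data known. Alternatives were a pseudocount of 0.1, no filter, a filter of 5 FPKM, rescaling, 1.5-fold, limma without trend, each LGR4-/- library left out and both wild-type libraries as reference. Promoter sequences came from RefSeq (GRCh38.p14), and gene coordinates are not given because the files name hg19. R 4.3.3 with limma 3.58.1 and Python 3.11.15 with pandas 2.3.3, scipy 1.17.1, numpy 2.4.6 and matplotlib 3.10.9 were used.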

Additional observations from a re-analysis of the deposited data

How the results depend on the processing

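The limma test of LGR4-/- against control depended on the setting. It called 0 genes as reported, with a pseudocount of 0.1, without the filter and without trend, 88 genes after rescaling, 497 with a filter of 5 FPKM (1 member, NKD1) and 1862 with both wild-type libraries as reference (6 members). Genes 2-fold from control in both LGR4-/- libraries numbered 167, and 345 with a pseudocount of 0.1 and 724 at 1.5-fold (2 members in place of 1). Leaving out either LGR4-/- library gave 191 to 447 genes and 1 to 3 members, the higher counts without LGR4-/--2. The R-spondin2 comparison had 28 genes at 2-fold, 14 with a filter of 5 FPKM, 139 with a pseudocount of 0.1 and 254 at 1.5-fold, and 0 members under each. The LGR4-/- pair differed in 32 genes, 12 with a filter of 5 FPKM, 141 with a pseudocount of 0.1 (1 member) and 306 at 1.5-fold (2 members). The AXIN2 difference of LGR4-/- from control, -0.0703, turned to 0.0423 without LGR4-/--1 and was -0.183 without LGR4-/--2. The cause was not tested. Of the remaining values for single members under the alternatives, 7 passed the limma threshold where the reported value did not, and 149 kept their direction and side of it or moved by less than their spread. No paired analysis was possible because the labels number the LGR4-/- libraries only. The fewest implied reads were lowest for LEF1 and NOTUM, at 21 and 23 in LGR4-/--1, and the reads actually counted are unknown.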
